A study of Mus musculus with 9 samples.

Results

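Gene expression was compared between 3 arrays of induced regulatory T cells made with platelet lysate (pltTGFβ_iTreg) and 3 arrays of conventional CD4 T cells (Tconv). These are 6 of the 9 arrays of the series, chosen by their titles. The other 3 arrays held induced regulatory T cells made with purified TGFβ1 (purTGFβ_iTreg) and are used only to show where the platelet-lysate cells differed from them. All cells came from mice on the C57BL/6 (B6) background that carry Foxp3EGFP, a green reporter of the transcription factor Foxp3. For the iTreg cultures, reporter-negative CD4+ cells were sorted from spleen and grown for 72 hours with IL2 (100 U/ml), soluble anti-CD28 (1 µg/ml), plate-bound anti-CD3 (2.5 µg/ml), 10% serum and β-mercaptoethanol. In pltTGFβ_iTreg the TGFβ came from a freeze-thaw lysate of platelets of wild-type C57BL/6 mice. The lysate's TGFβ1 had been measured by ELISA, but the labels do not give the dose that reached the cells. In purTGFβ_iTreg it was purified TGFβ1 at 5 ng/ml. The handling of Tconv is not settled: a note carried by all 9 samples lists TGFβ1 at 5 ng/ml among what these cells got. Whether the iTreg cells were purified by their reporter ahead of RNA extraction is not stated. The series' design text calls the 3 arrays of each group biological replicates and names no animal.

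Conventional CD4 T cells carry out helper functions and become regulatory T cells when the T cell receptor is engaged in the presence of TGFβ and IL2. TGFβ acts through a pair of receptor kinases that phosphorylate SMAD proteins, and Foxp3 then fixes the regulatory programme. A T cell that divides also has to feed itself. It imports and makes amino acids, and when these run short the kinase GCN2 and the transcription factor ATF4 raise the genes for amino acid synthesis, transport and tRNA charging. Platelets store TGFβ in their granules together with many other factors, so a lysate delivers TGFβ in a mixture.

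Each of 18193 genes was represented by 1 probe set, and every value below is the deposited RMA expression level on the log2 scale, where a difference of 1 is a 2-fold change. A gene was called where the limma adjusted p was below 0.1 and the groups differed by over 0.5 in log2, the cutoffs of the series' design text. By this rule 5194 genes, 28.5%, differed between pltTGFβ_iTreg and Tconv. Of these, 2521 (13.9%) rose and 2673 (14.7%) fell, and the median difference over all genes was -0.16. The split depended on scaling: after quantile normalization across arrays 2180 rose and 3497 fell, so that 38.4% of called genes were rises instead of 48.5%. With array medians centred it went the other way, with 2709 rises and 2193 falls (55.3% rises). Directions below are on the deposited scale. The large changes were mostly rises. More than 4-fold rises numbered 203 against 60 falls, more than 8-fold rises 38 against 10, and more than 16-fold rises 17 against 3. These counts cover all 18193 genes, sex-linked ones included. Calls were concentrated in well-expressed genes. Among the 9097 genes above the median level, 47.4% were called, 25.4% higher and 22.0% lower. Most genes in the lists below are of that kind, so the lists are set against those shares. Between pltTGFβ_iTreg and purTGFβ_iTreg, 748 genes (4.11%) were called, 281 higher with lysate (1.54%) and 467 lower (2.57%).

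Several facts of the arrays touch all of these values. Pearson correlations over probe sets were 0.9935 to 0.9963 within Tconv, 0.9962 to 0.9976 within pltTGFβ_iTreg and 0.9625 to 0.97 between them, so the Tconv arrays were the less alike. The Tconv arrays came from other animals than the iTreg arrays. Xist, the transcript that silences an X chromosome, read 10.63, 10.85 and 10.94 in Tconv and 3.91, 3.99 and 3.90 in pltTGFβ_iTreg, and the Y-linked genes Eif2s3y, Kdm5d and Uty rose by 6.25, 4.47 and 2.15. These sex-linked genes were not called between the iTreg groups. Sex, animal and treatment therefore cannot be told apart in any difference from Tconv. The 3′ minus 5′ difference of the control probe sets, a sign of RNA integrity, was 0.06 to 0.07 for Actb in Tconv and 0.03 to 0.06 in pltTGFβ_iTreg, and for Tfrc 1.36 to 2.38 and 1.25 to 1.48. For Gapdh it was -0.16 to -0.09 in Tconv and -0.20 in all pltTGFβ_iTreg arrays, which do not overlap, and the part of RNA integrity in the results was not tested. In 121 genes, 0.665%, all 3 pltTGFβ_iTreg arrays held the identical deposited value (54 genes in Tconv), so an SD near 0 below is no measure of the spread between cultures, and the standard errors given are limma's moderated ones. Foxp3 itself read 3.66, 3.84 and 3.88 in Tconv and 3.83, 3.83 and 3.90 in pltTGFβ_iTreg. Those values overlap, and the difference of 0.07 ± 0.09 (SE) was not called (limma adjusted p = 0.564). The single Foxp3 probe set read at a dim level in all 9 arrays.

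In 10737 genes, 59.0%, the Tconv and pltTGFβ_iTreg arrays did not overlap. Ranks were taken among called genes of that kind, leaving out sex-linked genes and predicted or clone names. Beyond the 10 largest rises so ranked, the next 30 (ranks 11 to 40) ran from 7.52-fold to 19.6-fold, with the largest limma adjusted p at 1.26e-07. In the text that follows SE is limma's standard error of the log2 difference. Of these 30 genes, 17 averaged below 5 in Tconv, a dim level on this scale, and none did in pltTGFβ_iTreg. Several encode the cell's scaffold and its protein-processing enzymes. Vim, which encodes the intermediate filament vimentin, read 7.92, 8.22 and 8.15 in Tconv and 12.19, 12.23 and 12.25 in pltTGFβ_iTreg, a rise of 4.13 ± 0.09 (17.5-fold), and its other probe sets rose by 4.04 and 3.55. Specc1, a cytoskeletal adaptor, went from 3.27, 3.33 and 3.05 to 7.27, 7.38 and 7.21, though its dimmer probe sets changed by only 0.61 and 0.09. Cpd, a carboxypeptidase of the trans-Golgi, read 4.40, 4.70 and 4.45 against 8.69, 8.56 and 8.42, a rise of 4.04. St8sia4, which builds polysialic acid on surface proteins, rose by 3.96 ± 0.15. The separation of the arrays in these 4 genes follows from the rule by which they were chosen. Adam19, a membrane protease, rose by 3.56, Plod2, a collagen lysyl hydroxylase, by 3.18 and Fbln2, a matrix protein, by 3.02, with its other, dim probe set flat at 0.02.

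Surface and signalling genes made up much of the remainder. Cd36, a scavenger receptor for fatty acids and for thrombospondin, was at 2.84, 2.86 and 2.83 in Tconv and at 6.31, 6.53 and 6.47 in pltTGFβ_iTreg. Its other probe sets changed by 2.49 and 0.08. With purified TGFβ1 it read 5.11, 4.23 and 4.58, so the lysate cells stood 1.79 above those as well (limma adjusted p = 7.89e-05). Cdh1, which encodes E-cadherin, rose from 2.50, 2.60 and 2.48 to 6.11, 5.93 and 5.84. Emp1, a tetraspan membrane protein, rose from 3.36, 3.43 and 3.51 to 7.35 on each array but was higher still with purified TGFβ1, at 9.55, 9.37 and 9.31, and a second, dimmer Emp1 probe set fell by 0.65 against Tconv. Ctla2b, a cysteine protease inhibitor, had the same order, with 2.90, 2.88 and 2.86 in Tconv, 5.86, 5.73 and 6.07 with lysate and 8.36, 8.20 and 8.24 with purified TGFβ1. Of the 30 genes, 5 were called above and 10 below the purified-TGFβ1 cells, and all 30 were also called higher in those cells than in Tconv. That comparison uses the same Tconv arrays and called 29.3% of all genes, 14.5% higher and 14.9% lower. Cyp11a1, the side-chain cleavage enzyme that starts steroid synthesis, rose from 5.29, 5.24 and 5.22 to 8.39, 8.39 and 8.43 (3.15 ± 0.07), while its other 2 probe sets changed by 0.14 and -0.47. Gpr83, an orphan receptor typical of regulatory T cells, rose by 3.12 and Ccr6, the receptor for Ccl20, by 2.91. Trp53inp1, a stress-response protein, rose by 2.97 and stood 1.24 below the purified-TGFβ1 cells. The rest of the 30 were Ahr, Ccl3, Ccl4, Socs2, Tgfbr1, Xcl1, Ccl1, Bmpr2 and Il18r1, which are taken up by function below, and Drc1, Tent5a, Arhgap5, Fbxo30, Kbtbd8 and Mob1b, at rises between 2.91 and 3.73.

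**Figure D1:**
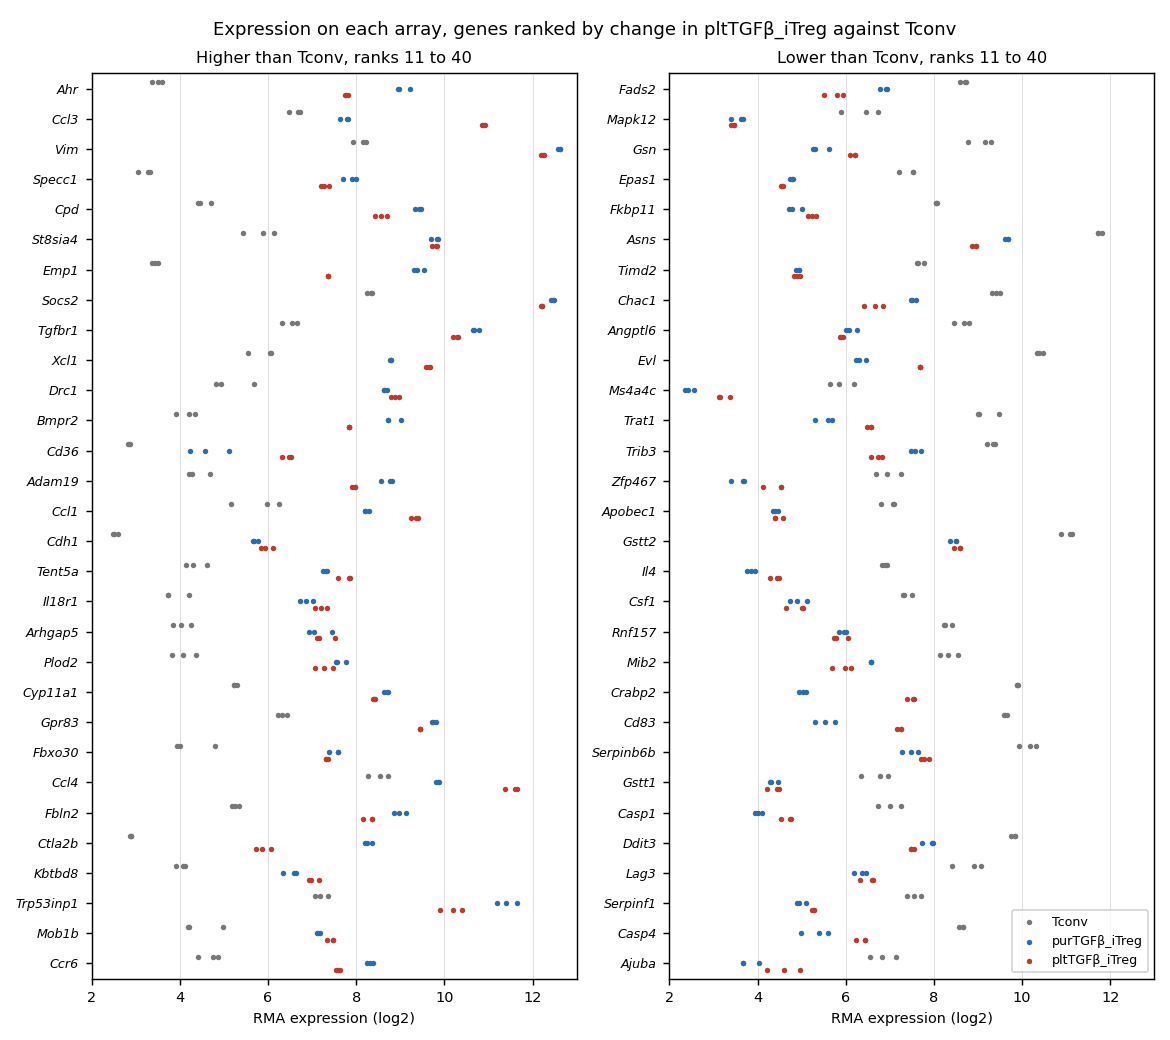
Expression (RMA log2, horizontal axis) of the 30 genes ranked 11 to 40 among rises (left) and falls (right) in pltTGFβ_iTreg against Tconv, with 1 dot for each of the 9 arrays. In every row the red pltTGFβ_iTreg dots lie apart from the grey Tconv dots, by rule of selection. The blue purTGFβ_iTreg dots lie, for example, above the red ones for Emp1 and Ctla2b and below them for Cd36. Of the 30 rises, 5 were called above and 10 below the purified-TGFβ1 cells. For the 30 falls these counts were 11 and 5.

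The corresponding 30 falls were smaller, from 4.74-fold to 7.57-fold, with the largest limma adjusted p at 2.39e-06. They began at moderate to high Tconv levels of 5.88 to 11.75. Fads2, the delta-6 fatty acid desaturase, read 8.58, 8.73 and 8.71 in Tconv and 5.81, 5.94 and 5.51 in pltTGFβ_iTreg, a fall of 2.92 ± 0.11 that went 1.12 below the purified-TGFβ1 cells. Epas1, the hypoxia-inducible factor HIF2α, went from 7.21, 7.52 and 7.52 to 4.55, 4.58 and 4.53, while Hif1a, its relative, rose by 1.39 from a Tconv mean of 9.58. That the Epas1 arrays did not overlap was part of the rule of selection. Mapk12, a p38 kinase, decreased by 2.91, Timd2, a T cell surface protein of the TIM family, by 2.78 and Fkbp11, a prolyl isomerase of the secretory pathway, by 2.83. Gstt2 and Gstt1, theta-class glutathione transferases, fell together. Gstt2 read 10.89, 11.09 and 11.14 in Tconv against 8.60, 8.60 and 8.45, and Gstt1 decreased by 2.32. The inflammatory caspase genes Casp1 and Casp4 also fell as a pair. Casp4 went from 8.58, 8.67 and 8.67 to 6.44, 6.24 and 6.44, and Casp1 decreased by 2.31, and both stayed above the purified-TGFβ1 cells, by 1.05 and 0.66. Lag3, an inhibitory receptor for MHC class II, read 8.42, 8.91 and 9.07 in Tconv and 6.61, 6.62 and 6.32 in pltTGFβ_iTreg. Asns, Chac1, Trib3, Ddit3, Il4, Csf1, Gsn and Evl among these 30 are described with their groups. All 30 also fell in purTGFβ_iTreg against the same Tconv arrays, and 11 were called above and 5 below the purified-TGFβ1 level.

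Falls were frequent in the genes with which a cell makes, imports and charges amino acids. Of 18 genes of the ATF4 pathway, 12 fell and 1 rose, with a median of -0.86. Of 19 enzymes of amino acid synthesis and one-carbon metabolism, 13 fell and 0 rose (median -0.83). Of 19 aminoacyl-tRNA synthetases, which load tRNAs with their amino acids, 13 fell and 0 rose (median -0.59). Of 17 amino acid transporters, 7 fell and 3 rose (median -0.41). All 4 shares of falls were above the 22.0% of well-expressed genes. Promoter sequences of Asns, Pck2 and Chac1, which are among the genes that fell most, are given here because each holds the letters of the element to which ATF4 binds together with C/EBP proteins. They are the 250 bases before the RefSeq start site (build GRCm38.p6), read 5′ to 3′ on the gene's strand, with matches to TGATGNAA on either strand in capitals. Asns lies at chr6:7693210-7693459 on the minus strand, with the match starting 23 bases before the start. Pck2 lies at chr14:55540016-55540265 on the plus strand, with its match 103 bases before the start on the opposite strand. Chac1 lies at chr2:119350992-119351241 on the plus strand, with its match 193 bases before the start, also on the opposite strand.
Asns: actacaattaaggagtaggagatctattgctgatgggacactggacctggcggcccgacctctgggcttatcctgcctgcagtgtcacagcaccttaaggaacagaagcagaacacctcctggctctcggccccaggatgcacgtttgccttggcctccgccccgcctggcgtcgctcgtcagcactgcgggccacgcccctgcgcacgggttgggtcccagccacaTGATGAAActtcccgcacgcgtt
Pck2: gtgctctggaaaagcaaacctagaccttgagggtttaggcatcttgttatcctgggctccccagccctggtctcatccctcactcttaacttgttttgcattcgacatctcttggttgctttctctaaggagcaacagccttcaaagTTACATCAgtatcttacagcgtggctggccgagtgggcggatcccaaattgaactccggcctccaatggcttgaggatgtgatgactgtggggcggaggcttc
Chac1: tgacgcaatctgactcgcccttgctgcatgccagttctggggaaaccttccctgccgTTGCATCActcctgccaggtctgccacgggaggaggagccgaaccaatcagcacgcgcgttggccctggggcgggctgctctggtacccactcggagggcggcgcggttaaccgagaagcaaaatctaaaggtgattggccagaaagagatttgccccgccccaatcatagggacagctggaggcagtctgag
These letters occur in 3.45% of 32851 RefSeq promoters in windows of that length. Counted by gene, they occur in 3.91% of 27025 genes with a promoter, in 2.75% of the genes that fell and in 2.2% of those that rose. In the lists they were found in 5 of 17 ATF4 pathway genes with a promoter, 3 of 16 synthesis enzymes, 3 of 12 synthetases and 2 of 13 transporters. A match describes only these letters and is no evidence of binding here.

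Among the regulators, Atf4 itself was high and fell little, from 12.26, 12.25 and 12.30 in Tconv to 11.56, 11.56 and 11.52, a difference of -0.73 ± 0.07. Several genes of the list fell further. Chac1, which degrades glutathione, read 9.32, 9.49 and 9.40 against 6.66, 6.85 and 6.41. Trib3, a pseudokinase that restrains ATF4, decreased by 2.61 from a Tconv mean of 9.31. Ddit3, which encodes CHOP, read 9.84, 9.75 and 9.84 against 7.48, 7.55 and 7.47, with a second, dimmer probe set at -1.03. Atf5 decreased by 1.80, Eif4ebp1, the translation inhibitor 4E-BP1, by 1.75, and Sesn2, a leucine sensor, by 1.35. The groups did not overlap in any of these, as was so for 15 of the 18 genes of the list and for 59.0% of all genes. Atf3 decreased by 0.65, and Nupr1, Cebpg and Vldlr, at 0.28, 0.40 and 0.05, were not called. Eif2ak3, the kinase PERK that starts this pathway from the endoplasmic reticulum, was the 1 gene that rose, by 0.66, and Eif2ak4, which encodes GCN2, was not called at -0.14. With probe sets averaged or after quantile normalization no gene of this list rose, and without Tconv replicate 1 the rises numbered 2.

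In the synthesis list, Asns, the asparagine synthetase, was bright in Tconv at 11.72, 11.82 and 11.71 and read 8.95, 8.87 and 8.95 in pltTGFβ_iTreg, a fall of 2.83 ± 0.07 (7.10-fold). Pck2, the mitochondrial PEP carboxykinase, read 10.74, 10.86 and 11.03 against 7.87, 7.85 and 7.85. Cth, which makes cysteine from cystathionine, fell from 9.45, 9.41 and 9.35 to 5.96, 5.75 and 5.88. Gpt2, an alanine transaminase, decreased by 2.02, and its other probe sets by 3.37, 3.02 and 2.03. The serine pathway fell at each step measured, with Phgdh at -0.81, Psat1 at -0.83 and Psph at -1.59, and so did 3 mitochondrial one-carbon enzymes, Shmt2 at -1.18, Mthfd2 at -0.92 and Aldh1l2 at -1.49, but not the mitochondrial Mthfd1l, which was not called at -0.42. The cytosolic Shmt1 at -0.31 and Mthfd1 at -0.14 were not called either, nor were Cbs at -0.21, Bcat1 at -0.15 and Glul at 0.02.

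Transporters went both ways. Slc7a3, a carrier of arginine and lysine, fell from 10.27, 10.34 and 10.26 to 6.00, 6.21 and 5.56, and Slc6a9, a glycine carrier, from 7.86, 7.98 and 8.32 to 6.13, 6.07 and 5.97. Slc7a5 and Slc3a2, the light and heavy chains of the LAT1 leucine transporter, decreased by 1.25 and 1.15, with Slc7a5 varying among the Tconv arrays (10.35, 10.88 and 11.04). Slc43a1, Slc7a11 and Slc1a5 decreased by 1.31, 1.14 and 0.67. Slc38a2 and Slc38a1, sodium-coupled carriers of glutamine and other neutral amino acids, instead rose by 1.02 and 0.62, and Slc36a4, a proline and tryptophan carrier, by 0.91. Slc38a2 was lost from the calls when its probe sets were averaged (0.35). Among synthetases, Vars, for valine, read 9.70, 10.20 and 10.51 against 8.61, 8.53 and 8.55, and Sars, for serine, read 11.80, 11.81 and 11.80 against 10.34, 10.40 and 10.32. Cars, Yars and Aars decreased by 1.20, 1.18 and 0.97, while Tars, Hars and Rars, at -0.06, 0.03 and 0.12, were not called.

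The lysate cells went below the purified-TGFβ1 cells in 6 of the 18 ATF4 pathway genes, above them in 1, below them in 3 of the 19 synthesis enzymes and in 1 of the 17 transporters. None of the 19 synthetases was called there. Pck2 was 1.10 lower than with purified TGFβ1 and Asns 0.73 lower, with purTGFβ_iTreg arrays at 9.61, 9.67 and 9.68 for Asns. Nupr1, a stress-induced chromatin protein, was 1.95 lower. The gene above was Atf3, which was 1.57 higher with lysate although 0.65 below Tconv.

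**Figure D2:**
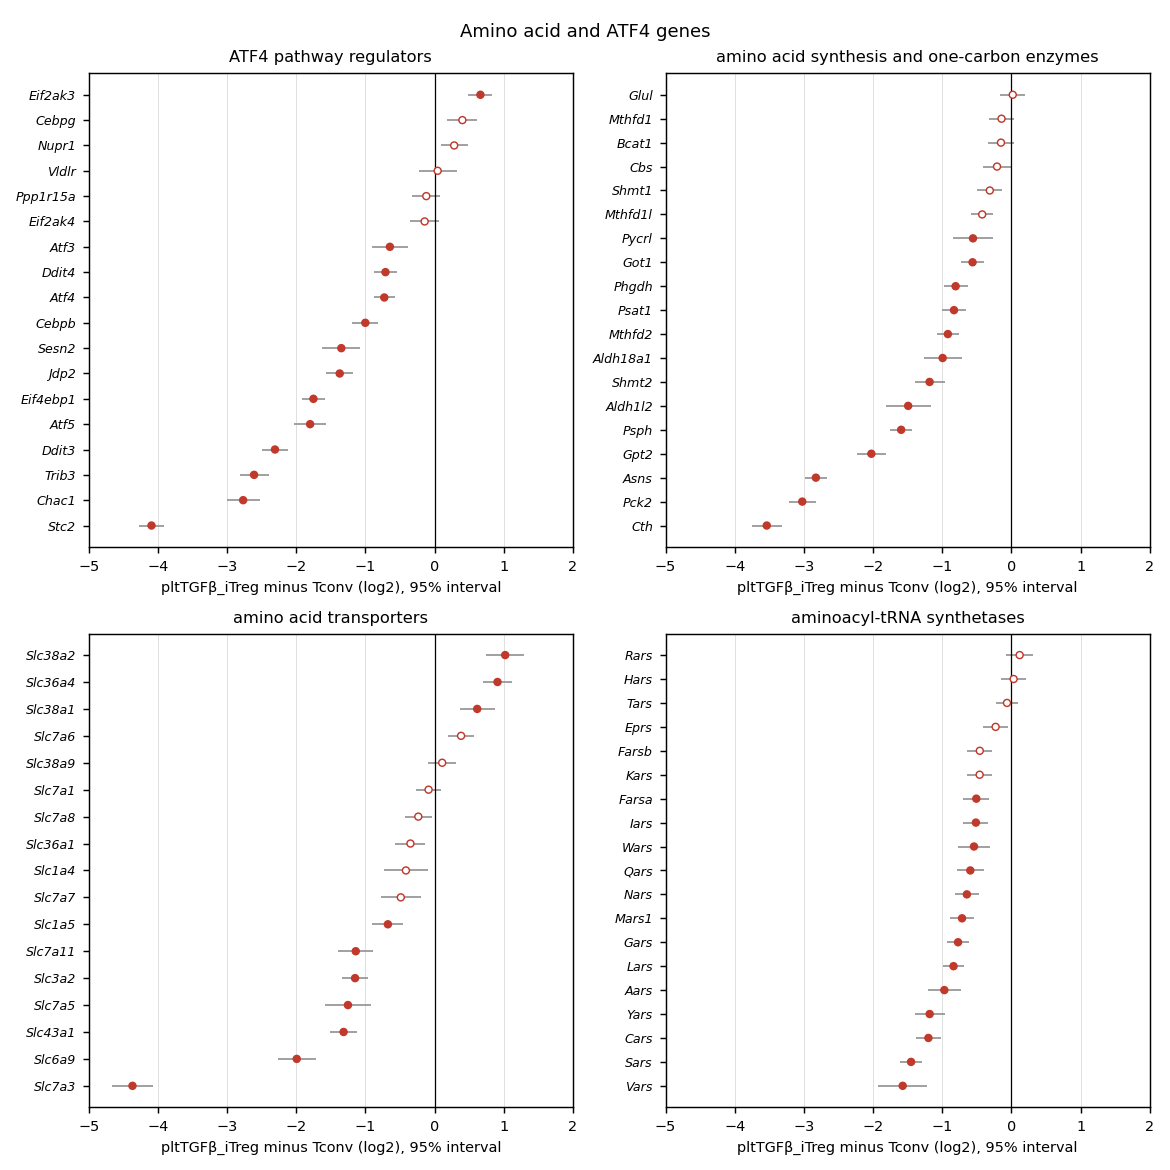
Difference between pltTGFβ_iTreg and Tconv (log2, horizontal axis) for every measured gene of 4 lists, with the 95% interval of the limma fit. Filled points were called and open points were not. Points lie to the left of 0 for most genes, out to -4.37 for Slc7a3, and to the right for called genes only at Eif2ak3, Slc38a1, Slc38a2 and Slc36a4.

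Other metabolic lists leaned the same way or split. Of 25 cholesterol and fatty acid synthesis genes, 15 fell and 2 rose (median -0.59). Pmvk, a kinase of the mevalonate pathway, read 10.26, 10.55 and 10.49 against 8.40, 8.38 and 8.36. Mvd and Lss, later steps of sterol synthesis, decreased by 1.55 and 1.44, and Fdps, which makes farnesyl diphosphate, went from 12.37, 12.44 and 12.35 to 11.12, 11.11 and 10.98. Srebf2 and Srebf1, the master transcription factors of these genes, decreased by 1.29 and 1.06. Elovl6, which lengthens fatty acids, and Idi1 rose by 1.15 and 0.96, and Sqle, Cyp51 and Hmgcs1, between -0.10 and -0.02, were not called. Only 1 other Hmgcs1 probe set was called, lower by 1.14, and the rest were at 0.21, 0.30 and 0.02. Of the same 25 genes, 10 were lower and 0 higher than with purified TGFβ1, led by Scd1 at -1.90. Scd1 was not called against Tconv (-0.40), although its other probe set fell by 1.20.

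Glycolysis had 7 falls and 0 rises in 18 genes (median -0.25). Aldoc, a minor aldolase, decreased by 1.79 and Slc2a3, the glucose transporter GLUT3, read 9.93, 9.68 and 9.70 against 8.50, 8.39 and 8.20. Pfkm and Hk1 decreased by 0.99 and 0.92. Ldha, Pgk1, Pkm and Slc2a1, at 0.12, -0.07, -0.28 and 0.26, were not called. Of 26 respiratory chain and ATP synthase subunits, 6 fell (23.1%) and 1 rose (3.85%), with a median of -0.22 and Sdhc lowest at -0.81. The share of falls was near the 22.0% of well-expressed genes and the 26.0% of those of similar genomic span. Among the subunits that fell, Ndufb8 read the opposite way on another probe set, and its mean over probe sets was 0.03. In the mTORC1 list, which covers the kinase complex that reads amino acid supply at the lysosome, 8 of 25 fell and 5 rose (median -0.37). The rises were in the GTPases and their partners, Rragd at 4.55 (other probe sets 0.63 and 0.27), Rheb at 0.86, Rraga at 0.83, Rragc at 0.56, and Fnip1, a folliculin partner, from 5.54, 5.97 and 5.51 to 8.10, 7.73 and 7.82. The falls were in the regulators and readers, among them Tfeb at -0.93, Tsc2 at -0.92, Castor1 at -0.83 and Rptor at -0.70. Of 20 chaperone and unfolded-protein genes of the endoplasmic reticulum, 7 rose and 3 fell (median 0.22). Dnajb9 rose by 1.55, Pdia3 by 1.23 and Xbp1 by 0.63, while Hspa5, which encodes BiP, was at 0.27 and not called.

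Of 27 mitosis and spindle genes, 13 rose, 1 fell and 13 were not called (median 0.33). Kif11, the motor that separates spindle poles, read 6.97, 7.10 and 7.08 in Tconv and 9.32, 9.35 and 9.36 in pltTGFβ_iTreg. Mki67, the proliferation marker Ki-67, read 9.87, 10.04 and 9.88 against 11.58, 11.57 and 11.54. Bub1, Cenpe, Cenpf and Ttk, of the spindle checkpoint and kinetochore, rose by 1.34, 1.36, 1.33 and 1.30. The regulators Cdk1, Aurka, Aurkb and Cdc20, at -0.01, -0.21, -0.39 and -0.23, were not called, and Plk1 decreased by 0.61, the 1 fall of the list. The falls numbered 2 without Tconv replicate 1, 0 without Tconv replicate 3 and 3 after quantile normalization. Of 26 DNA replication and nucleotide synthesis genes, 5 rose and 2 fell (median -0.14). Without pltTGFβ_iTreg replicate 1 the falls numbered 4, and without Tconv replicate 3 the rises numbered 3. Pola1, a catalytic subunit of DNA polymerase alpha, rose by 1.40 and Tyms by 1.35, though Tyms averaged 0.47 over its probe sets, and the Mcm helicase genes lay between -0.46 and 0.60. Among 22 G1 regulators, 7 rose and 2 fell. Ccne2, a cyclin that drives S-phase entry, went from 6.03, 6.41 and 5.99 to 8.84, 8.63 and 8.75, and E2f3 and Rbl1 rose by 1.41 and 1.36. Cdkn1b, the inhibitor p27, rose by 0.98 and stood 0.92 below the purified-TGFβ1 cells, while Cdkn1a, the inhibitor p21, decreased by 0.60. None of the mitosis or replication genes was called between the iTreg groups. Ribosome biogenesis had 6 rises and 4 falls in 25 genes, with Nop58 highest at 1.51.

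The genes that set the threshold for cell death moved in both senses. In the BCL2 family of 15 genes, 8 fell and 3 rose (median -0.56), and none differed between the iTreg groups. The protective Bcl2 rose from 8.65, 8.35 and 8.17 to 10.15, 10.26 and 10.36 and Mcl1 by 0.67, while the protective Bcl2l1, which encodes BCL-XL, read 9.78, 9.95 and 10.12 against 8.75, 8.82 and 8.71. Among the killers, Pmaip1, which encodes NOXA, rose by 2.00, and Bbc3, which encodes PUMA, and Bak1 decreased by 1.34 and 1.15. Of 18 p53 targets, 5 rose and 5 fell. Perp, a membrane protein of the death response, rose by 2.73, Mdm2 by 0.85 and Ccng1 by 0.89. Plk2, a stress-induced kinase, read 10.43, 10.30 and 10.21 in Tconv, 8.83 on each lysate array and 2.16 less with purified TGFβ1.

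Of 45 transcription factors of T cell lineages and of the naive state, 19 rose and 12 fell (median 0.08). Among regulatory T cell factors, Ikzf2, which encodes Helios, rose from 4.63, 4.74 and 4.64 to 7.02, 7.10 and 7.32 and Ikzf4, which encodes Eos, by 1.25, and both were 0.52 and 0.51 below the purified-TGFβ1 cells. Among factors of quiescence and memory, Bach2 read 8.78, 8.48 and 8.44 against 10.08, 10.06 and 9.98, Klf2 rose by 1.66, Foxp1 by 1.16 and Foxo1 by 0.68, while Satb1 decreased by 1.59 and Id3 by 1.04. Lef1 at -0.04 was not called. Runx1, a partner of Foxp3, rose by 1.81 and Runx3 by 1.28. Of factors for helper lineages, Gata3, for Th2, read 8.81, 9.21 and 9.23 against 6.97, 6.95 and 6.91, Nfil3 read 8.84, 9.10 and 8.97 against 6.93, 6.84 and 6.78, and Tbx21, for Th1, decreased by 0.80. Eomes was not called against Tconv (0.08) but stood 1.38 above the purified-TGFβ1 cells. Its other, dimmer probe set was called higher than Tconv by 0.77, with means of 6.27 and 7.04. Maf, which drives IL10 and helper genes, rose by 5.12 and stood 1.36 below the purified-TGFβ1 cells, with its other probe sets between 0.06 and 2.54. Klf6, Hif1a, Bach1, Tcf12 and Myb rose by between 1.25 and 1.50.

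In the list of DNA methylation and Polycomb enzymes, 7 of 21 rose and 5 fell, and 0 differed between the iTreg groups. The rises were led by Polycomb subunits that silence genes through histone marks. Suz12 read 8.62, 8.69 and 8.69 in Tconv and 10.79, 10.72 and 10.89 in pltTGFβ_iTreg, with other probe sets at 2.38, 2.67, 2.40, 0.44 and 2.45. Bmi1 rose by 2.01 and Rnf2 by 1.21, though Rnf2 averaged only 0.41 over its probe sets. Ezh2, the catalytic subunit, rose by 0.51, just past the cutoff. Ring1, Cbx2 and Kdm2b decreased by 0.74, 0.82 and 0.63. Of the TET enzymes that remove DNA methylation, Tet2 rose by 1.14 and Tet3 and Tet1 decreased by 0.79 and 0.61. Dnmt1, Dnmt3a and Dnmt3b, which add it, were not called at -0.33, -0.24 and -0.07. Other Dnmt3a probe sets were at -0.63, -0.53, -0.42 and -0.21, those of Dnmt1 at -0.37 and -0.51 and that of Dnmt3b at -0.26. The sets beyond -0.5 were called lower.

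Of 26 genes for TGFβ receptors, SMADs and feedback, 10 rose, 2 fell and 14 were not called (median 0.40). The share of rises, 38.5%, is close to the 37.7% of well-expressed genes of similar genomic span, a comparison set out further on. Without pltTGFβ_iTreg replicates 2 or 3 or Tconv replicate 1 the falls numbered 1. Among receptors, Tgfbr1, the type I kinase, read 6.32, 6.66 and 6.54 in Tconv and 10.30, 10.20 and 10.29 in pltTGFβ_iTreg, with other probe sets at 2.84 and 3.22. Bmpr2, the type II receptor for bone morphogenetic proteins, rose from 4.22, 3.92 and 4.33 to 7.85 on each array, while 1 of its dimmer probe sets was at -0.28. Tgfbr3 rose by 0.95, and Tgfbr2 (0.46), Acvr1b (0.49) and Acvr1 (0.03) were not called. A dim Acvr1 probe set was called higher by 1.09, with means of 3.239 in Tconv and 4.325 with lysate, and another was at -0.14. Among signal carriers, Smad2 rose by 0.59 and Smad3 and Smad4 were not called at -0.27 and 0.32. Among feedback genes of the pathway, Skil, which encodes SnoN, read 7.61, 7.58 and 7.63 against 10.19, 10.13 and 10.29. Klf10 rose by 2.23, Ldlrad4 by 2.09, Pmepa1 by 1.74 and Smurf2 by 1.09, while Ski and Smurf1, at -0.06 and -0.07, were not called. The other Ldlrad4 probe sets, all dim, were flat at 0.40, 0.06 and -0.13. Smad7, the best known of them, read 6.97, 6.82 and 7.39 against 7.06, 6.99 and 6.95, which overlap. Ltbp3, which stores latent TGFβ in the matrix, decreased by 1.08, and Tgfb1 itself read 8.46, 9.21 and 9.51 against 8.05, 8.12 and 7.65. Against purified TGFβ1, 8 of the 26 were lower with lysate and 0 higher, Ldlrad4 by -1.87, Bmpr2 by -0.97, Smad7 by -0.83 and Tgfbr2 by -0.61. Itgae, the integrin CD103 and a textbook TGFβ target, read 4.63, 4.54 and 4.43 in Tconv, 4.80, 4.71 and 4.95 with lysate and 6.00, 5.95 and 6.05 with purified TGFβ1. Its difference of 0.29 from Tconv was under the fold cutoff. A second, dimmer Itgae probe set was called higher by 0.54, with means of 3.605 in Tconv and 4.144 with lysate.

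Of 8 aryl hydrocarbon receptor genes, 4 rose and 0 fell (median 0.65). This receptor binds tryptophan products and dioxins, and Cyp1a1, its classic target, went from 3.84, 3.40 and 3.79 to 6.12, 6.16 and 6.01, close to the 6.20, 6.00 and 6.01 seen with purified TGFβ1. Ahr rose by 4.29 (its other probe set, 0.04), Tiparp by 1.07 and Ahrr by 0.88, and Ahr was 1.27 below the purified-TGFβ1 cells. Of 12 adenosine and purine genes, 7 rose and 3 fell (median 0.61). Nt5e and Entpd1, the ectoenzymes CD73 and CD39 that turn extracellular ATP into adenosine, rose by 5.27 and 1.73 and were 0.92 and 1.37 below the purified-TGFβ1 cells. Other Nt5e probe sets changed by 1.85 and -0.49. Pde4b, which degrades cyclic AMP, decreased by 0.99 on this probe set and rose by 0.56 on another. With probe sets averaged the list had 4 rises and 1 fall. In the iron and NRF2 list, 6 of 20 rose and 3 fell. Tfrc, the transferrin receptor, read 11.01, 11.05 and 10.91 against 12.60, 12.57 and 12.54, and Ireb2, the iron sensor that stabilises its mRNA, rose by 1.72. The metallothionein genes Mt2 and Mt1 rose by 1.05 and 0.71. Hmox1 and Slc7a11, targets shared by NRF2 and stress factors, decreased by 0.96 and 1.14, and Nqo1 and Txnrd1, both at 0.21, were not called.

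Of 31 genes of T cell receptor signalling, 12 rose and 4 fell (38.7% and 12.9%), which is close to the 35.5% and 15.6% of well-expressed genes of similar genomic span. Zap70, the kinase that the receptor recruits, read 10.77, 11.07 and 11.08 against 9.93, 10.03 and 9.85, and Cd4, Csk and Plcg1 decreased by 0.62, 0.59 and 0.55. Txk and Tec, kinases further down, rose by 1.75 and 0.94, and the adaptor Nck1 by 1.38. Pag1 rose by 1.12 on this probe set and averaged 0.09 over its probe sets. The CD3 chains Cd3e, Cd3d, Cd3g and Cd247 were not called, between -0.42 and -0.10. Another Cd247 probe set was called lower by 1.04, with means of 7.44 in Tconv and 6.41 with lysate. The remaining Cd247 probe sets, at -0.13 and 0.16, were not called. In the early-response list, 7 of 24 fell and 2 rose. Batf3, Batf and Junb, AP-1 factors of effector cells, decreased by 1.94, 1.31 and 1.19, and Ier3 by 1.98, while Jun went from 6.31, 6.54 and 6.71 to 8.88 on each array. Nr4a3 rose by 1.35, but another of its probe sets fell by 0.51. Of these 24 genes, 8 stood above the purified-TGFβ1 cells and 1 below, among them Nr4a2 at 1.61 and Egr3 at 0.85, neither of which was called against Tconv. A different Egr3 probe set was called lower than Tconv by 0.66, with means of 6.77 in Tconv and 6.12 with lysate.

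Of 18 NF-κB genes, 9 fell and 1 rose (median -0.46). Nfkb2, the precursor of the alternative pathway, read 9.27, 9.45 and 9.70 against 7.79, 7.75 and 7.46, its partner Relb decreased by 1.18 and Traf1 by 0.91. Cyld, which removes activating ubiquitin chains, rose by 1.46. Rela, Rel and Tnfaip3, at -0.41, 0.42 and 0.12, were not called, although Rel and Tnfaip3 were 0.86 and 0.92 above the purified-TGFβ1 cells. Of 16 genes for MAPK phosphatases, Sprouty-related inhibitors and GADD45 proteins, 6 rose and 2 fell, with Spred1 at 1.42, Dusp4 at 1.21 and Dusp2 at -0.97. The falls numbered 1 without Tconv replicate 3 and 5 after quantile normalization. Gadd45g and Gadd45b rose by 0.80 and 0.82 and stood 1.86 and 1.41 above the purified-TGFβ1 cells. In the cytokine signalling list, 4 of 21 rose, all of them SOCS inhibitors, and 5 fell, of which 4 encode kinases or STATs. Socs2 rose by 3.89, Socs4 by 1.68, Socs6 by 1.29 and Socs3 by 1.06. Stat4 decreased by 1.14, Jak3 by 0.97, Stat5a by 0.75, Tyk2 by 0.67 and Pias3, an inhibitor of STATs, by 0.75. Of 17 IL2 and STAT5 targets, 8 rose and 3 fell, with Il2ra, the receptor chain CD25, at 8.61, 8.74 and 8.72 against 10.42, 10.51 and 10.32. Among 8 diacylglycerol kinases, Dgkh alone rose, from 4.05, 3.90 and 3.97 to 8.37, 8.32 and 8.37, and Dgkd decreased by 0.86.

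Of 25 cytokine genes, 8 rose and 9 fell against Tconv, and against purified TGFβ1 8 were higher and 0 lower. Ifng rose by 4.57. Lta and Ltb, the lymphotoxins, rose by 1.85 and 1.44 and were not called between the iTreg groups. Il2 read 7.93, 7.85 and 7.52 in Tconv, 8.29, 8.20 and 8.41 with lysate and 4.56, 3.87 and 3.99 with purified TGFβ1, so it rose by only 0.54 against Tconv but stood 4.17 above the purified-TGFβ1 cells. Tnf and Lif rose by 0.93 and 0.94 and were 0.72 and 0.88 above purified TGFβ1. The falls included the Th2 cytokines Il4 at -2.49 and Il13 at -1.32, the growth factors Csf1 at -2.49 and Csf2 at -1.62, Penk, which encodes proenkephalin, at -2.18, and Ebi3, a subunit of IL27 and IL35, at -1.44. Csf2 lay between the others, at 7.16, 7.10 and 7.21 in Tconv, 5.57, 5.56 and 5.48 with lysate and 4.28, 4.04 and 3.90 with purified TGFβ1. Il10 at 0.12, Il17a at -0.07 and Il21 at 0.20 were not called.

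Of 14 chemokine ligands, 6 rose and 1 fell. Xcl1, lymphotactin, read 5.55, 6.06 and 6.04 in Tconv, 9.65, 9.68 and 9.58 with lysate and 8.80, 8.80 and 8.78 with purified TGFβ1. Ccl1, a ligand of CCR8, read 6.25, 5.17 and 5.98, then 9.41, 9.36 and 9.25, then 8.20, 8.20 and 8.28. Ccl3, Ccl4 and Ccl20 rose by 4.25, 3.03 and 4.38. All 5 were above the purified-TGFβ1 cells, by between 0.79 and 3.14. Ccl5 alone fell, by 1.25. In the granule list, 5 of 24 rose and 6 fell. Gzmb, granzyme B, read 10.18, 10.11 and 10.03 in Tconv, 11.80, 11.68 and 11.63 with lysate and 6.66, 6.70 and 6.89 with purified TGFβ1. Gzma rose by 1.09 from a dim 3.81, and Prf1 and Nkg7, both at 0.11, were not called. Ctsw, cathepsin W, rose by 1.94, and Tnfsf10, the death ligand TRAIL, by 2.19, and these were 1.12 and 0.78 below purified TGFβ1. Of the inhibitors of granule proteases, 3 fell and Serpinb6a, at 0.49, was not called. Serpinb6b read 10.17, 10.31 and 9.92 against 7.89, 7.78 and 7.70, Cst7 decreased by 1.89 and Serpinb9 by 0.85. Fasl was not called against Tconv (0.25) but stood 2.26 above purified TGFβ1.

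**Figure D3:**
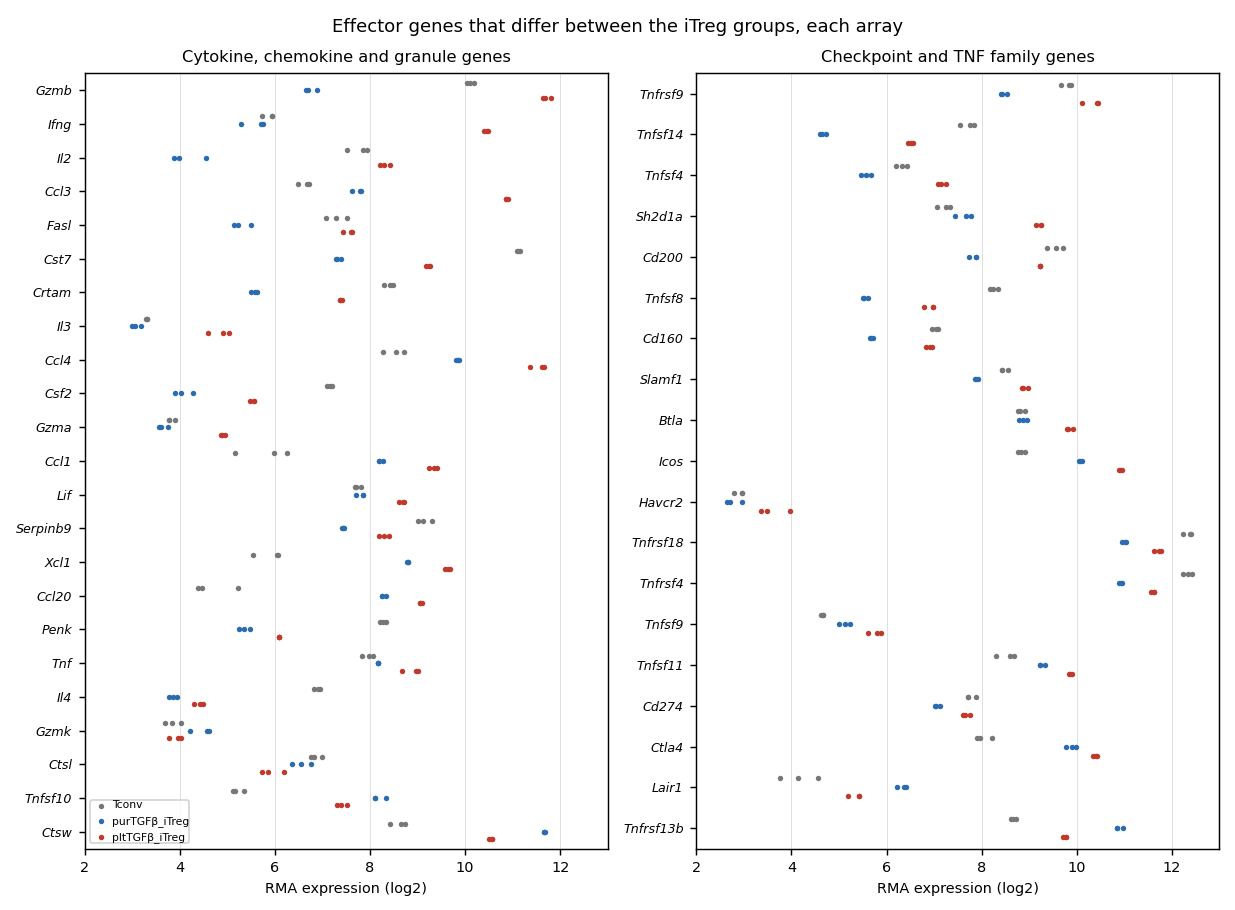
Expression (RMA log2, horizontal axis) on each of the 9 arrays for the effector genes called between pltTGFβ_iTreg and purTGFβ_iTreg, sorted by that difference. Of the 23 cytokine, chemokine and granule genes, 19 lay higher with lysate (red) than with purified TGFβ1 (blue), as did 17 of the 19 checkpoint and TNF family genes, and the grey Tconv dots sit above the red ones for some genes (Cst7, Csf2) and below them for others (Gzmb, Icos).

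Of 22 checkpoint and costimulatory receptors, 10 rose and 5 fell (median 0.30). Ctla4, which competes with CD28, read 8.23, 7.97 and 7.90 against 10.42, 10.35 and 10.41. Icos read 8.91, 8.84 and 8.77 against 10.88, 10.91 and 10.96. Sh2d1a, the adaptor SAP, rose by 2.00, Lair1 by 1.18, Btla by 1.02, Cd96 by 1.01 and Pdcd1, which encodes PD-1, by 0.81. Havcr2, which encodes TIM-3, was dim, at 2.95, 2.80 and 2.95 against 3.98, 3.48 and 3.36. Lag3, Slamf6, Cd6, Cd5 and Pdcd1lg2 fell. Against purified TGFβ1, 9 of the 22 were higher and 1, Lair1, was lower. In the TNF family, 9 of 26 rose and 6 fell. The ligands Tnfsf11, which encodes RANKL, Tnfsf9 and Tnfsf4 rose by 1.34, 1.11 and 0.84, while Tnfsf8, Tnfsf14 and Cd70 decreased by 1.34, 1.20 and 1.04. The receptors Tnfrsf4 and Tnfrsf18, OX40 and GITR, were bright and decreased by 0.73 and 0.63, Tnfrsf18 from 12.23, 12.38 and 12.41 to 11.77, 11.73 and 11.63. Tnfrsf9, which encodes 4-1BB, rose by 0.54 and stood 1.88 above the purified-TGFβ1 cells. In all, 10 of the 26 were higher and 2 lower than with purified TGFβ1.

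Among 30 cytokine receptors, 10 rose (33.3%) and 4 fell (13.3%), which is close to the 35.5% and 15.6% of well-expressed genes of similar genomic span. Beside Tgfbr1 and Il2ra the rises were led by Il18r1 at 3.31, and Ifngr1, Il7r and Il12rb2 rose by 1.09, 1.03 and 0.84. Il12rb1, Il4ra, Il21r and Il15ra fell by between 0.54 and 0.90. Of 17 chemokine receptors, 4 rose and 2 fell. Cxcr3, a Th1 homing receptor, rose from 7.08, 7.29 and 7.33 to 8.70, 8.70 and 8.62. The 2 falls, Ccrl2 and Ccr10, were 1 when array medians were centred or pltTGFβ_iTreg replicate 3 was left out. Against purified TGFβ1, 4 of the 17 were lower and 0 higher, Cx3cr1 by -1.39, Cxcr4 by -0.92, Ccr8 by -0.79 and Ccr6 by -0.73. Of 21 lipid and orphan receptors, 8 rose and 4 fell. Gpr65, which senses protons, rose from 4.56, 4.29 and 4.26 to 7.03, 6.94 and 6.94, Lpar6 by 1.53 and S1pr1, which lets T cells leave lymph nodes, by 1.17. Gpr183, the oxysterol receptor, decreased by 0.89 and yet stood 2.07 above the purified-TGFβ1 cells.

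Adhesion and cytoskeleton genes changed in a few members and by large amounts. Of 27 integrins and other adhesion receptors, 6 rose and 2 fell. Itgav, the αv chain of the integrins that activate TGFβ, went from 7.58, 7.59 and 7.33 to 9.61, 9.51 and 9.49, although 3 dim probe sets of it were flat, between -0.24 and 0.16. Itga6 rose by 1.59, Cd48 by 1.61 and Epcam by 1.49, and Itgal, the LFA-1 chain, decreased by 0.77. Itgb3 read 7.06, 7.40 and 7.43 in Tconv, 5.93, 5.90 and 6.24 with lysate and 1.75 less with purified TGFβ1. Of 32 actin regulators, 8 rose and 4 fell, and without Tconv replicate 1 the falls numbered 7. The Ena/VASP family, which lengthens filaments, split. Enah rose from 3.41, 3.31 and 3.27 to 7.64, 7.55 and 7.72 on this probe set, while its 5 others changed by 0.75, -0.30, 0.80, 0.09 and 0.12. Evl fell from 10.38, 10.48 and 10.33 to 7.68 on each array, and Vasp was not called at -0.44. Profilins split likewise, with Pfn2 at 5.13 and Pfn1 at -0.15 and not called. Gsn, which severs filaments, read 8.78, 9.16 and 9.28 against 6.22, 6.20 and 6.09, with other probe sets at -3.36, -3.33, -3.22, -0.65 and 0.05. Of 22 S100, annexin and galectin genes, 5 rose and 4 fell, and the rises numbered 8 without Tconv replicate 3. Beside Vim, counted there, Anxa3 rose by 2.85 and stood 1.59 below purified TGFβ1, and Lgals3, galectin-3, rose by 2.28 and stood 0.87 above. Of 8 GIMAP GTPases, which support lymphocyte survival, 2 rose and 3 fell, Gimap7 most, from 9.78, 9.86 and 9.78 to 7.57, 7.65 and 7.47, and the rises numbered 1 without Tconv replicate 3 and 0 after quantile normalization.

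Interferon-stimulated genes did not move as a block. Of 30, 10 rose and 5 fell (median 0.20). Those that rose included the GTPases Iigp1, from 8.26, 8.49 and 8.56 to 11.10, 11.10 and 11.13, Gbp6 at 1.58, Gbp3 at 1.38 and Irgm1 at 1.20, and also Ifit2 at 1.66 and Isg20 at 1.50. The neighbours Ifitm3 and Ifitm2, membrane proteins that block viral entry, went opposite ways. Ifitm3 read 5.92, 6.14 and 6.32 against 8.87, 9.07 and 8.51, and Ifitm2 read 10.05, 10.38 and 10.49 against 7.13, 7.28 and 7.23. Oas1a, Oasl1, Rsad2 and Ifi27l2a fell by between 0.54 and 1.11, and Ifit1, Ifit3, Mx1 and Irf7, between -0.20 and 0.17, were not called. Of 19 MHC and antigen-processing genes, 5 fell and 1 rose, Nlrc5 at 0.50, a rise that was lost without either Tconv replicate 1 or 2 and without pltTGFβ_iTreg replicate 1 or 3. The class II genes H2-Oa, H2-Ab1 and H2-Eb1 decreased by 1.96, 1.65 and 1.31, while Ciita, their activator, at -0.13, and the class I genes H2-K1 and H2-D1, at -0.02 and -0.19, were not called.

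Each list of markers of other cells averaged below 5 on every array. In these bulk cultures, fewer cells of a type and less RNA per cell cannot be told apart. Of 16 platelet markers, 0 rose and 4 fell, and their mean level was 4.37 to 4.51 on the Tconv arrays and 4.02 to 4.10 on the pltTGFβ_iTreg arrays. The platelet-granule genes Pf4 and Ppbp read 3.24, 3.24 and 3.47 and 2.81, 2.84 and 2.61 in Tconv, and 3.19, 3.48 and 3.23 and 2.75, 2.61 and 2.75 with lysate, dim values that overlap. The mean of 15 myeloid markers was 4.12 to 4.30 in Tconv and 3.88 to 3.96 with lysate, with 2 falls and 0 rises (4 falls without pltTGFβ_iTreg replicate 2 or Tconv replicate 2), and that of 10 B cell markers 4.83 to 4.88 and 4.56 to 4.70, with Cd79b at -1.65 and Ighm at 0.65. Only 1 Ighm probe set was called higher. Another bright one, at 9.28 in Tconv and 9.78 with lysate, rose by 0.497, just under the cutoff (limma adjusted p = 0.000729). The dimmer Ighm probe sets changed by between -0.52 and 0.09, and the mean over probe sets was -0.10. The class II falls above and the lower B cell and myeloid levels moved together, and the part of such cells in the class II result was not tested. The 8 CD8 and NK genes averaged 4.22 to 4.27 in Tconv and 4.32 to 4.45 with lysate, a higher level in which Klrd1 and Klrc1 rose by 1.90 and 0.78 and Cd8b1 decreased by 1.04, and the part of such cells in the granule results was not tested. The 8 erythroid markers averaged 4.12 to 4.21 and 3.96 to 4.02, and 1 rose and 2 fell, the rise being Hba-a2 at 0.51 with a limma adjusted p of 0.0975, which was lost in a fit of the compared groups alone, after quantile normalization, and without Tconv replicate 1 or any of the pltTGFβ_iTreg replicates. The 9 pan T cell genes averaged 10.48 to 10.67 in Tconv and 10.45 to 10.50 with lysate, with 2 rises (Cd28 and Cd2, the latter lost without Tconv replicate 1) and 2 falls (Cd4 and Cd5).

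Side by side, the lists ran from those with rises and hardly a fall, such as aryl hydrocarbon receptor genes and mitosis, to those with falls and no rise, which apart from the marker lists of other cells were glycolysis, aminoacyl-tRNA synthetases and amino acid synthesis.

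**Figure D4:**
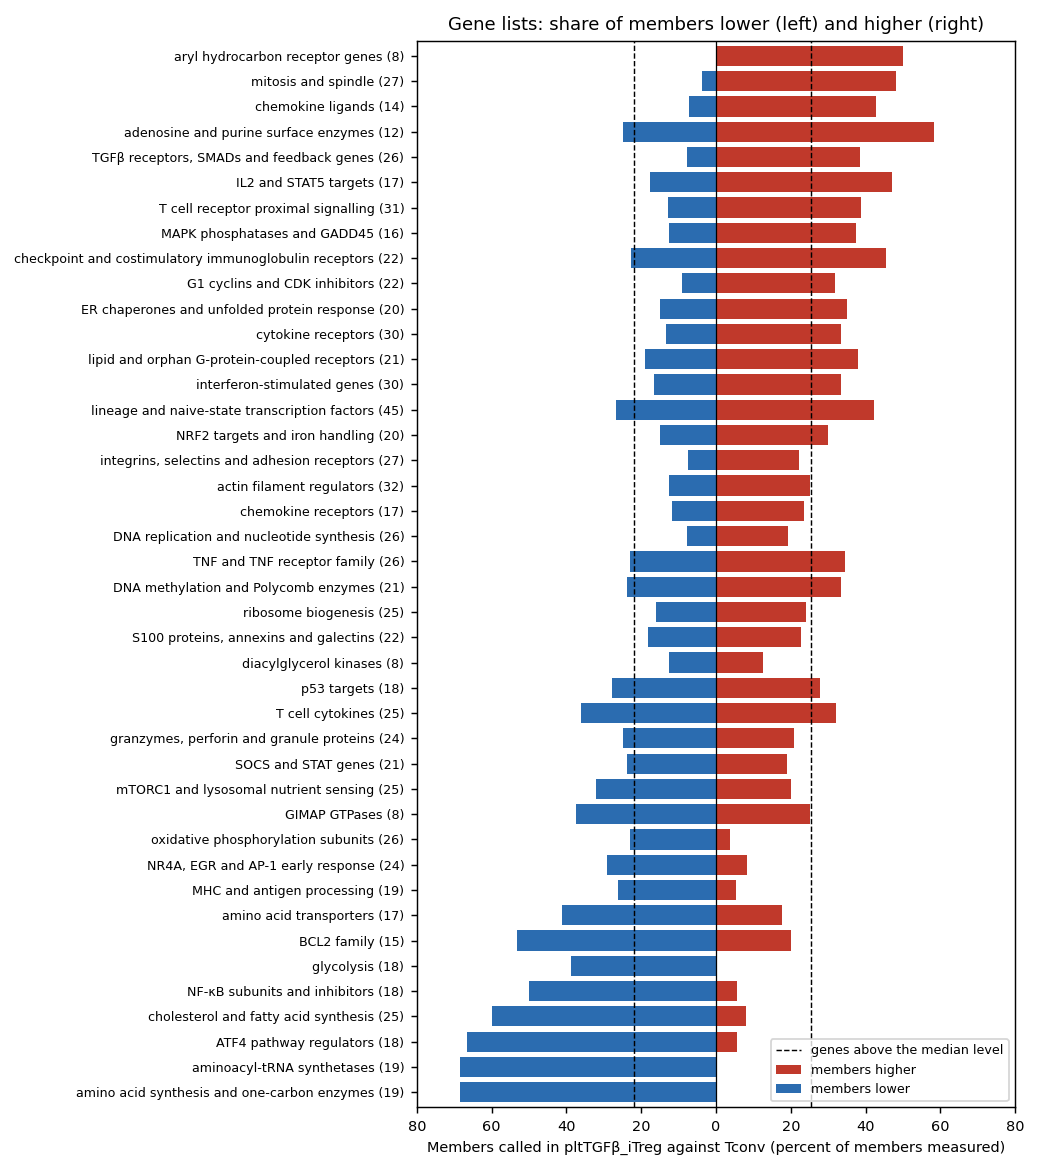
Share of each list's measured members (number in brackets) that was called lower (blue, to the left) or higher (red, to the right) in pltTGFβ_iTreg against Tconv, with lists sorted by the difference. The dashed lines mark the 22.0% lower and 25.4% higher among genes above the median level. The bottom 2 lists have no red bar, and lists of 8 genes change by 12.5 percentage points for each gene.

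A property of the genes themselves moved with these calls. The span of a gene on the genome (RefSeq, GRCm38.p6, known for 99.7% of genes) had a median of 36.8 kb among genes that rose, 16.0 kb among those that fell and 18.4 kb among the rest. This check was chosen after the values had been seen. Among genes above the median level, the share that rose was 9.94% in quintile 1 of span (0.064 to 6.25 kb) and 37.7% in quintile 5 (64.0 to 1610 kb), and the share that fell was 32.2% and 14.9%. The same order was seen with purified TGFβ1 against these Tconv arrays, where the median difference went from -0.30 to 0.27, while between the iTreg groups medians by quintile lay between -0.03 and 0.01. Over genes of all levels, the share called lower with lysate than with purified TGFβ1 was 2.07% and 1.90% in quintiles 1 and 2 and 3.34% and 3.11% in quintiles 4 and 5, and the share called higher lay between 1.35% and 1.68%. Short lists such as cytokines (median span 5.13 kb) and ATF4 pathway genes (8.39 kb) fall in quintiles 1 and 2, where 32.2% and 26.0% of genes fell, and long ones such as TGFβ signalling (68.7 kb) in quintile 5, where 37.7% rose. T cell receptor signalling (51.8 kb), lineage transcription factors (38.8 kb), cytokine receptors (31.8 kb) and checkpoint receptors (29.2 kb) lie in quintile 4, where 35.5% rose and 15.6% fell. Amino acid synthesis enzymes (24.6 kb) and synthetases (26.1 kb) lie in quintile 3, where 24.0% of genes fell and 23.8% rose. The part of span in each list's result was not tested.

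**Figure D5:**
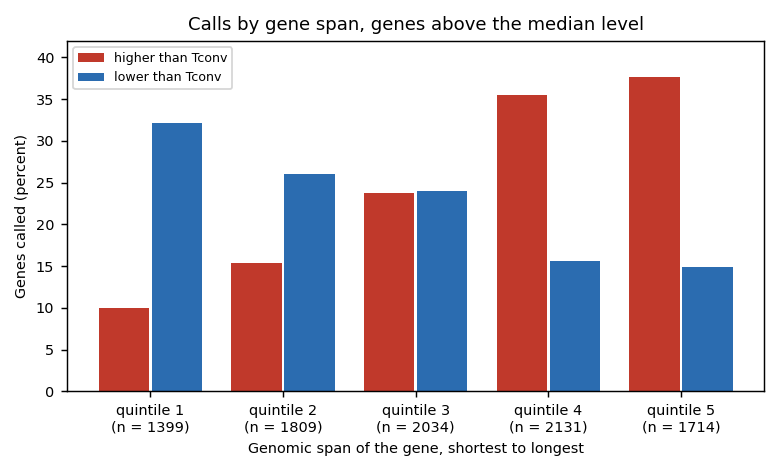
Percent of genes called higher (red) or lower (blue) in pltTGFβ_iTreg than in Tconv, for genes above the median level split into quintiles of genomic span, with the number of genes under each pair of bars. The red bars climb from 9.94% to 37.7% and the blue bars drop from 32.2% to 14.9%.

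Large gene families, picked by symbol after the values were seen, differed in the same way as short and long genes in some cases and not in others. Of 37 centrosomal Cep genes, 20 rose and 4 fell (median 0.54, median span 42.6 kb), with Cep128 from 4.43, 4.79 and 4.63 to 6.32, 6.20 and 6.21 and Cep350 at 1.44. Of 51 ubiquitin proteases named Usp, 20 rose (39.2%) and 4 fell (7.84%), with Usp15 at 1.81. Their median span of 52.1 kb lies in quintile 4, where 35.5% of well-expressed genes rose and 15.6% fell, so the share of rises was near that of the quintile. The Cep genes lie in the same quintile, and 54.1% of them rose and 10.8% fell. Of 43 RNA-binding Rbm genes, 15 rose and 2 fell, with Rbm27 at 1.92, and of 23 TAF subunits of the basal transcription machinery 10 rose and 1 fell, with Taf9b at 2.22. Both of these families have median spans in quintile 3 (17.8 and 16.4 kb), where 23.8% of well-expressed genes rose, against 34.9% of Rbm and 43.5% of TAF genes. Of 336 zinc finger genes named Zfp, 102 rose and 37 fell. At the other end, 23 of 76 mitochondrial ribosomal proteins fell (30.3%) and 2 rose (2.63%), with a median of -0.34 and a span of 7.69 kb. Mrps10 went from 10.98, 11.08 and 11.09 to 9.96, 9.97 and 9.96. In quintile 2, where that span lies, 26.0% of well-expressed genes fell and 15.4% rose, so the share of falls was near that of the quintile. Of 20 aldehyde dehydrogenases, 10 fell and 0 rose (median -0.51), with Aldh7a1 at -1.44 and Aldh2 at -1.40, although their median span of 28.9 kb is in quintile 4. Cytosolic ribosomal proteins (2 higher and 4 lower of 43) and proteasome subunits (3 and 2 of 40) had few calls. Between the iTreg groups the calls were 1 of the Cep, 6 of the Usp and 0 of the mitochondrial ribosomal genes.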

How the data were processed

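The arrays were Affymetrix mouse expression arrays. The deposited values are log2 expression levels per probe set that the authors computed by RMA in Expression Console, as the series' design text states. This method subtracts background, equalises the distributions of all arrays and then combines the probes of a set. It can compress large changes and shift all genes when groups differ broadly. The deposited levels per probe set were not equal in distribution across arrays, since further quantile normalization or centring of array medians changed the counts of rises and falls. The design text also gives ANOVA in Partek with a false discovery rate under 10% and a 1.4-fold cutoff. No array depth applies, and 3 arrays a group limit the precision.

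The 64 control probe sets were left out. The remaining 45037 were fitted with limma 3.58.1 (R 4.3.3) over all 9 arrays with 3 group means and moderated variances, two-sided, with Benjamini-Hochberg adjustment over all of them. Of these, 34945 are paired with 1 gene symbol by the platform annotation, 932 with several and 9160 are not listed there. Each gene took its probe set with the highest mean over 9 arrays (a cross-hybridising _x_at set only where there was no other). A gene given as not called can have another probe set that was called. The p-values measure the spread between arrays within groups.

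The lists and the comparison were chosen with earlier results of these data known. Named genes were those ranked 11 to 40 in each direction (sex-linked, predicted and clone names left out), up to 8 per list with the lowest adjusted p, members that did not pass, and 13 fixed genes. Others are named as examples, chosen after their values were seen. Some listed genes have no named probe set and are not analysed here. Samples were not paired by replicate number in the main fit. Gene spans and promoters are RefSeq's (GRCm38.p6). Fitting code was tested on simulated data. Alternatives were other scalings and cutoffs, a filter on dim probe sets, the mean of probe sets, a fit of the compared groups alone, a replicate block and leaving out each array.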

Additional observations from a re-analysis of the deposited data

Results flagged for a closer look

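Probe sets that the platform annotation does not list under any gene also carried signal that no comparison by gene uses. Of 9160 such probe sets, 1325 (14.5%) were called between pltTGFβ_iTreg and Tconv at the same cutoffs, 932 higher and 393 lower, with a median difference of -0.07 in log2. They are unnamed here, not without a gene.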

How the results depend on the processing

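The count of called genes was 5194 and lay between 5166 and 5475 when each array was left out (higher 2478 to 2558, lower 2625 to 2941). Against purTGFβ_iTreg those ranges were 720 to 754, 268 to 309 and 418 to 470. With an adjusted p under 0.05 and a log2 difference above 1, limma called 1839 genes (1281 higher, 558 lower, so 69.7% rises) and, against purTGFβ_iTreg, 169 (71 higher, 98 lower). With no fold cutoff it called 10996 (3670 higher, 7326 lower, so 33.4% rises) and 1768 (770 higher, 998 lower). The main fit did not pair samples by replicate number. Between pltTGFβ_iTreg and Tconv, correlations of same-numbered deviations were -0.10, -0.04 and 0.09, within the -0.10 to 0.12 of different numbers. Between the iTreg groups they were 0.19, 0.26 and 0.09, all above the -0.24 to 0.05 of different numbers. Whether iTreg cultures of the same number shared a batch was not tested. The replicate block gave 5194 and 745 called genes and changed no call of a named gene. Averaging a gene's probe sets turned Ighm to -0.10 and Ndufb8 to 0.03. Over 420 named genes and the 12 alternatives fitted for them (scalings, dim filter, probe-set mean, compared groups alone, replicate block and each array left out, not other cutoffs or variance models, and with 28 genes missing under the dim filter), 4905 gene results kept direction and side of the threshold, 76 lost the call, 29 gained one and 2 reversed, with a cause that was not tested. Of the list counts, 1128 stayed within 1.5 times and 48 moved further. Other scalings moved the median of all genes only between -0.16 and -0.10. Dim probe sets and a group of 3 arrays limit what can be seen, Foxp3 included.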

Other observations

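In 56 genes, 2 probe sets were called in opposite directions against Tconv. Those among the listed genes were Emp1, Ighm, Ndufb8, Nr4a3, Pde4b and Wdr12, the last with another probe set at 1.59. Further families were picked by symbol after their values were seen. Over all genes 13.9% were higher and 14.7% lower, and above the median level 25.4% and 22.0%. RNA helicases named Ddx had 12 of 35 higher (34.3%) and 5 lower (14.3%). Kinesins named Kif had 7 of 37 higher (18.9%) and 4 lower (10.8%). Solute carriers named Slc, with 39 of 347 higher (11.2%) and 49 lower (14.1%), were near the shares of all genes. Claudins had 0 of 24 higher and 5 lower (20.8%), and only 1 of the 24 lay above the median level. Complex I genes named Nduf had 3 of 44 higher (6.82%) and 10 lower (22.7%), against 15.4% and 26.0% of well-expressed genes of similar span.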
